A study of Homo sapiens with 8 samples.

Results

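The genes described here encode laminin chains, nidogens and perlecan, secreted proteins that build the basement membrane under an epithelium. Of 9 listed genes, 6 had a row of their own among the 18495 rows of the expression table, meaning a row whose annotation holds that gene symbol and no other. These were LAMA4, LAMA5, LAMB1, LAMC1, NID1 and NID2. HSPG2 and LAMB3 each lie in a row annotated together with a second gene and are given only as shared rows, and LAMA3 was not analysed here.

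The arrays compare PNT2 cells, an established human line of prostatic epithelium, after 2 treatments. In 4 samples (siESRP) small interfering RNA was aimed at both ESRP1 and ESRP2, which encode splicing regulators of epithelial cells, and in 4 control samples (siGFP) it was aimed at GFP. Both groups are thus the same line, grown in RPMI1640 with serum and transfected, and they differ in the siRNA target. The knockdown was partial, close to 80% by quantitative RT-PCR per the labels. Nothing in the labels tells separate cultures from repeats of 1 culture, so the p-values rest on a spread among arrays that may be technical.

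Laminins are cross-shaped trimers of an alpha, a beta and a gamma chain that polymerize beneath epithelial, endothelial and muscle cells. Nidogens bind the gamma chain encoded by LAMC1 and link the laminin sheet to the type IV collagen network, and perlecan, a heparan sulfate proteoglycan, adds a further bridge and holds growth factors. Epithelia, prostate included, rest on membranes rich in the alpha chain of LAMA5, while the alpha chain of LAMA4 is best known from vessels, muscle and nerve.

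Values are gene-level array intensities, quantile normalized over the 8 arrays, in arbitrary units. Differences are siESRP minus siGFP on the log2(value + 1) scale. The test was limma on all rows with Benjamini-Hochberg adjustment, and a row was called at an adjusted p under 0.05. An intensity depends on its probes, so levels of different genes were not read as relative amounts of RNA. Sums over marker lists weigh the brightest rows most and are compared only between the groups. In RNA from a whole culture, a change in the share of expressing cells and a change in RNA per cell cannot be told apart.

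Array medians ran from 233 to 286 as deposited, and Spearman correlations were 0.987 to 0.995 within siESRP, 0.988 to 0.994 within siGFP and 0.979 to 0.985 between the groups. ESRP1 had intensities of 568, 499, 660.2 and 599 in siESRP, against 2232, 2527, 2617 and 2379 in siGFP. The row shared by ESRP2 and NFATC3 lay between 109 and 171 in siESRP and between 486 and 563 in siGFP. Of 6 epithelial markers with a row, CDH1, KRT18, KRT19 and KRT15 rose, while EPCAM and KRT8 were bright in both groups and did not pass the test. The summed intensity of those 6 markers was 24214 to 25099 in siESRP and 21141 to 22281 in siGFP.

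Of the 6 genes, 5 rose after the knockdown, 0 fell and LAMB1 did not pass the test. Over all rows, 20.2% were called, 10.9% as higher in siESRP. With a change of at least 1.5-fold the count was 4 of 6, against 4.68% of all rows. The median log2 difference of the 6 genes was 0.77, and that over all rows was −0.02. The genes were chosen with earlier results of these data known, so these counts are descriptions. The alpha chains and NID1 had the larger differences and the beta chain LAMB1 the smallest.

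Of the alpha chains, LAMA4 encodes a chain with a shortened arm that does not take part in laminin polymerization. Its intensities were 1247, 1136, 1345 and 1271 in siESRP, against 462, 554, 569.6 and 499.8 in siGFP. Every siESRP array was thus far above every siGFP array, and the lowest siESRP value was that of replicate 2. The means were 1249.8 ± 86.7 in siESRP and 521 ± 49.6 in siGFP (SD, n = 4 each), a log2 difference of 1.26 ± 0.08 (SE), or 2.40-fold, with a limma adjusted p of 0.000215. Of all rows, 1.18% had a higher difference.

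LAMA5 encodes the widespread alpha chain of adult epithelial basement membranes. It had intensities of 745, 905, 812 and 877 in siESRP, against 466, 426, 426 and 451 in siGFP. The groups did not overlap, as was true for 5 of the 6 genes with siESRP above, against 12.6% of all rows. The log2 difference was 0.91 ± 0.07 (SE), or 1.88-fold, with means of 835 ± 71.5 in siESRP and 442 ± 19.4 in siGFP (SD, n = 4 each, limma adjusted p = 0.000356).

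Since LAMA4 is best known outside epithelia, the marker lists of other cell types are given beside it. Of 8 endothelial markers CDH5 was called higher and TEK lower, and the summed list was 494 to 584 in siESRP and 442 to 479.8 in siGFP. The largest part of that sum was CDH5, which averaged 324 in siESRP and 241 in siGFP. TEK averaged 22.1 in siESRP and 30.25 in siGFP, near background. PECAM1 averaged 19.2 in siESRP and 15.7 in siGFP, and EMCN 9.20 in siESRP and 3.28 in siGFP, both near background and neither called. Among the other endothelial markers that were not called, CLDN5 was lower in siESRP, with 55.03 against 67.16 in siGFP. The rest differed little: VWF averaged 54.06 in siESRP and 53.47 in siGFP, and KDR 32.9 in siESRP and 32.73 in siGFP. ERG averaged 16.5 in siESRP and 15.97 in siGFP. Of 6 fibroblast markers 0 rose and COL1A1 fell, and the sum was 372 to 442 in siESRP and 466 to 536.5 in siGFP. Of 3 smooth muscle markers, with sums of 137 to 161 in siESRP and 134 to 174.5 in siGFP, none passed limma, and none had an unadjusted p under 0.05. No marker of these lists was at or below 0 on any array. The labels name only the PNT2 line in both groups and no other cell type. Any link of these markers to the LAMA4 difference was not tested.

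**Figure D1:**
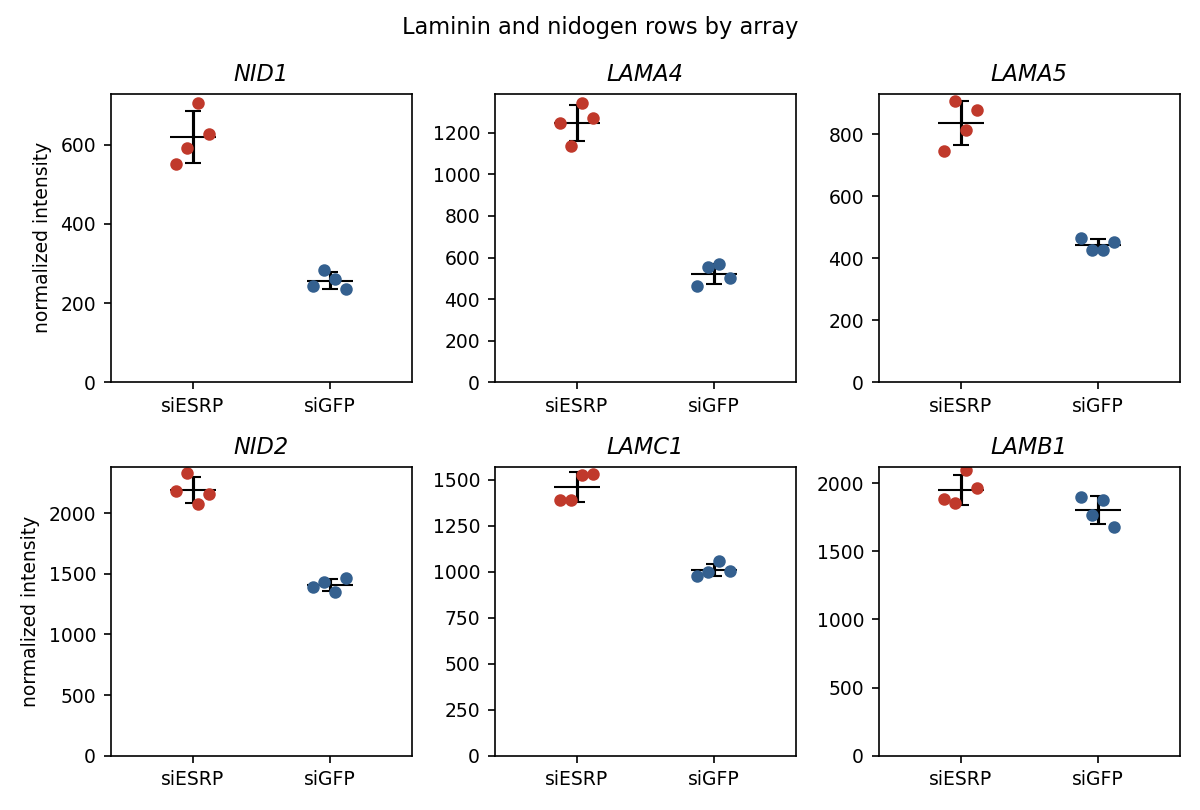
Normalized intensity (vertical axes, arbitrary units, from 0) of the 6 genes with a row of their own on the 4 siESRP and the 4 siGFP arrays, with the group mean and SD as black bars. The groups are apart in 5 panels, and in the LAMB1 panel the siESRP values of 1852.5 to 2099 overlap the siGFP values of 1681 to 1902.

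The beta chain LAMB1, a partner of LAMC1 in laminins with either alpha chain, showed no such separation. Its intensities were 1888, 1852.5, 2099 and 1964 in siESRP, against 1902, 1765, 1874 and 1681 in siGFP. Arrays of the same group differed as much as the groups did: siGFP replicate 1 exceeded siESRP replicates 1 and 2. The log2 difference was 0.11, with a 95% interval from −0.03 to 0.25 (limma adjusted p = 0.260), so a rise of more than 1.19-fold lies outside that interval.

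The gamma chain LAMC1, which carries the nidogen binding site, rose less than the alpha chains. It had 1389, 1389, 1527 and 1532 in siESRP, against 974, 999.9, 1057 and 1003 in siGFP. The arrays of each group lay close together, and the gap between the groups was wider than the spread within either. LAMC1 averaged 1459 ± 81.1 in siESRP and 1009 ± 34.8 in siGFP (SD, n = 4 each), a log2 difference of 0.53 ± 0.05 (SE) or 1.45-fold, with a limma adjusted p of 0.000851.

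Both nidogen genes rose. NID1 had intensities of 551, 592, 706 and 626 in siESRP, against 243, 284, 261 and 236 in siGFP. All siESRP values were well above the siGFP values, with siESRP replicate 3 the highest. The log2 difference of NID1 was 1.27 ± 0.09 (SE), or 2.41-fold, with means of 619 ± 65.7 in siESRP and 256 ± 21.2 in siGFP (SD, n = 4 each, limma adjusted p = 0.000296).

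NID2, its paralogue, had 2182, 2331, 2073 and 2162 in siESRP, against 1388, 1435, 1347 and 1463 in siGFP. These groups too were apart, by a smaller proportion. NID2 averaged 2187 ± 107 in siESRP and 1408 ± 51.3 in siGFP (SD, n = 4 each), a log2 difference of 0.63 ± 0.05 (SE) or 1.55-fold, with a limma adjusted p of 0.000381.

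Of the remaining listed genes, HSPG2 and LAMB3 can be read only through shared rows. The row annotated to both HSPG2, the perlecan gene, and LDLRAD2 had 639.9, 772, 828 and 839.8 in siESRP, against 328, 326, 320.1 and 316 in siGFP. The groups did not overlap, and the log2 difference was 1.25 ± 0.09 (SE), with a limma adjusted p of 0.000262. The row annotated to both LAMB3 and the microRNA gene MIR4260 had 1412, 1439, 1558 and 1475 in siESRP, against 1882, 2114, 2075 and 1895 in siGFP. Every siESRP value of that row was below every siGFP value (log2 difference −0.44 ± 0.06 SE, limma adjusted p = 0.00262), and on the deposited scale the call was lost (adjusted p = 0.0635). Of all rows, 9.31% were called lower, and in 12% every siESRP array lay below every siGFP array. Which gene of each pair set these values was not tested.

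**Figure D2:**
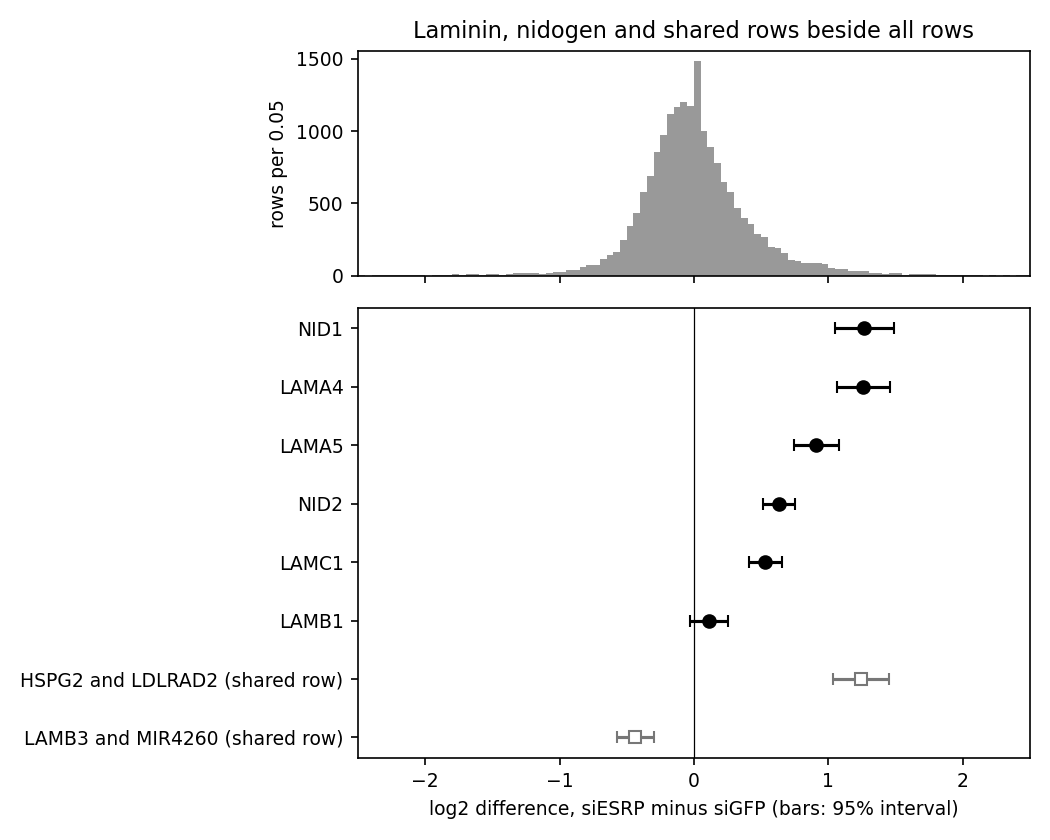
The upper panel is a histogram of the log2 difference, siESRP minus siGFP, over all rows, drawn from −2.5 to 2.5 in bins of 0.05. The lower panel shows the 6 genes (filled circles) and the 2 shared rows (open squares) with 95% intervals, in which only LAMB1 spans 0 and the LAMB3 and MIR4260 row lies at −0.44.

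Ratios taken within an array asked whether related genes moved by different amounts, since a scale common to an array drops out of them. Of 5 pairs set in the design, 3 needed LAMA3 or LAMB3 and were not computed. The log2 ratio of NID1 over NID2 was −1.98, −1.98, −1.55 and −1.79 in siESRP, against −2.51, −2.33, −2.36 and −2.62 in siGFP. All siESRP ratios were above the siGFP ratios, a shift of 0.63. Its two-sided exact permutation p was 0.0286, the smallest possible with 4 arrays a group. Adjusted over the 2 pairs it was 0.0571. The ratio of LAMA4 over LAMA5 was 0.74, 0.33, 0.73 and 0.53 in siESRP, against −0.01, 0.38, 0.42 and 0.15 in siGFP. Those groups overlapped, and the shift of 0.35 did not pass (exact permutation p = 0.0857, adjusted p = 0.0857).

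All 15 pairs of the 6 genes were then compared, a choice made after the values were seen. In 11 pairs the groups did not overlap, and each of these had a two-sided exact permutation p of 0.0286 (adjusted p = 0.0390 over the 15 pairs). These 11 include every pair with LAMB1. Relative to LAMB1, the ratio of NID1 shifted by 1.15, that of LAMA4 by 1.15, that of LAMA5 by 0.80, that of NID2 by 0.52 and that of LAMC1 by 0.42. The pairs that did not pass were NID1 over LAMA4 with a shift of 0.00, NID1 over LAMA5 with 0.35, LAMA4 over LAMA5 with 0.35 and NID2 over LAMC1 with 0.10. These ratios describe the order already seen in the differences. The adjusted p of the 11 pairs is set by how many pairs reach the smallest possible p, as for NID1 over NID2, which did not pass over the 2 pairs of the design.

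**Figure D3:**
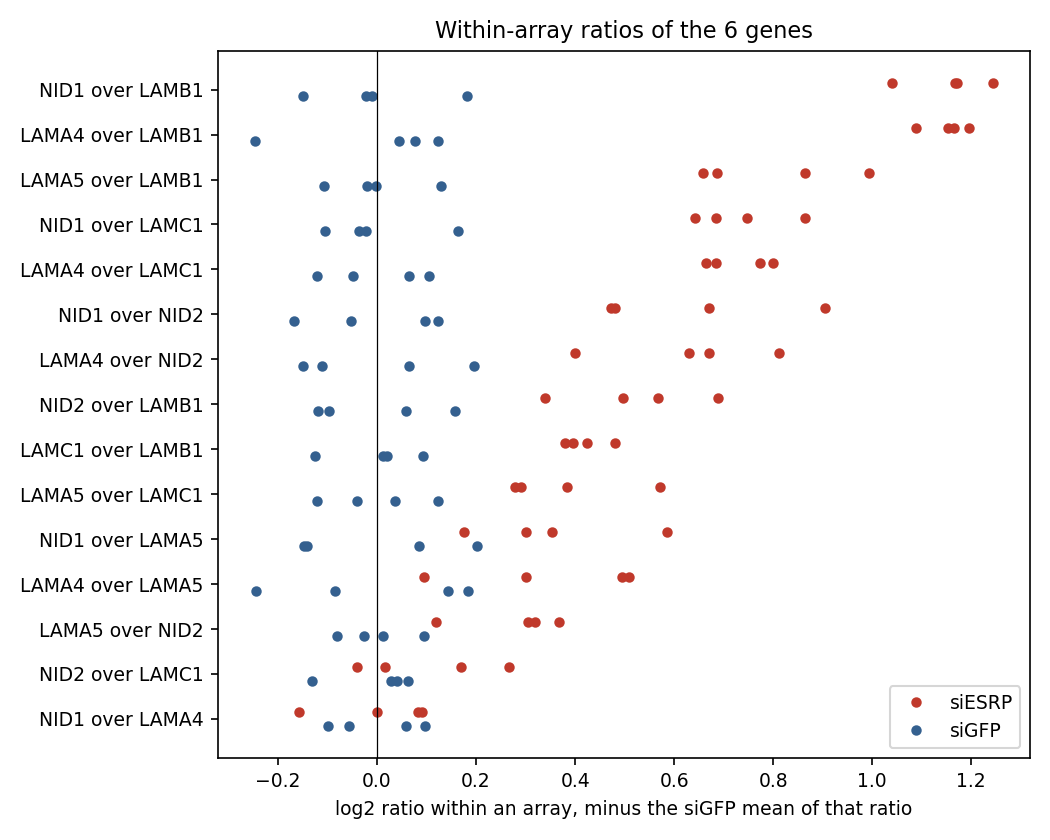
Each line is 1 of the 15 pairs of genes, and each point is the log2 ratio of that pair on 1 array, shown relative to the siGFP mean of the ratio (horizontal axis), with siESRP points drawn above siGFP points. The pairs are sorted by their shift, from 1.15 for NID1 over LAMB1 at the top to 0.00 for NID1 over LAMA4 at the bottom.

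Likeness of pattern was measured as the root mean square distance between log2 values over the 8 arrays, each gene centred on its own mean, among 13808 rows with 1 symbol and values above 0. The distance between NID1 and LAMA4 was 0.09, and 7 rows lay closer to LAMA4 than NID1 did, while 5 lay closer to NID1 than LAMA4 did. The rows nearest to NID1 were TIMP4, an inhibitor of metalloproteinases, at 0.036, BCKDK, a kinase of branched-chain amino acid breakdown, at 0.058 and PROS1, the anticoagulant protein S, at 0.065. The rows nearest to LAMA4 were PROS1 at 0.077, the lipase gene LIPH at 0.078 and FAM135A at 0.079. Between LAMC1 and NID2 the distance was 0.11. These distances mostly carry the difference between the 2 treatments that all 8 arrays share.

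Because NID1 and LAMA4 moved by nearly the same amount and LAMB1 did not pass, the 250 bases before the start site are shown for these 3 genes. They are from RefSeq on GRCh38.p14, and all lie on the minus strand: LAMA4 at chr6:112254568-112254817, NID1 at chr1:236065091-236065340 and LAMB1 at chr7:108003162-108003411. They are written 5′ to 3′ in the direction of the gene, with matches to the GC box in capitals (GGGCGG, or CCGCCC on the other strand).
LAMA4: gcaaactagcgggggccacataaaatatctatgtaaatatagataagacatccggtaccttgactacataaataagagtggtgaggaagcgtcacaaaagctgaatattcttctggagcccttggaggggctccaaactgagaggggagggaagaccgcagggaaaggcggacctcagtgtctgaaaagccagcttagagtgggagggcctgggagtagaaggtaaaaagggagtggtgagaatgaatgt
NID1: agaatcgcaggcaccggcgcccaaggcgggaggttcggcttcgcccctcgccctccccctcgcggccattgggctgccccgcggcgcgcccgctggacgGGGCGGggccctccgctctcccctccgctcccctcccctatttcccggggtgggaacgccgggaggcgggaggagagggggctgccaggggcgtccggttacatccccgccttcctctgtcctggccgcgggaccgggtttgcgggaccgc
LAMB1: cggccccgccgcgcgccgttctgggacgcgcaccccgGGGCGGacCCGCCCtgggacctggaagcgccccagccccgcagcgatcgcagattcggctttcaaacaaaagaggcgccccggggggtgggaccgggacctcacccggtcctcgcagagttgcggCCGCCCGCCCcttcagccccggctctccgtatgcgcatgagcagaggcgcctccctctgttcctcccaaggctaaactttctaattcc
The LAMA4 stretch has a G and C content of 48.4%, no GC box and 5 CpG dinucleotides. The NID1 stretch has 76.4%, 1 GC box and 30 CpG, and the LAMB1 stretch has 70.4%, 4 GC boxes (2 of them overlapping) and 28 CpG. In G and C content, LAMA4 and NID1 thus differ more than NID1 and LAMB1 do. Any link of base composition to the intensity differences was not tested. For scale, 42.6% of 35116 promoters of the same length hold a GC box, and their median G and C content is 58%. All 6 genes matched the promoter table. LAMA5 had 5 GC boxes at 82.8%, LAMC1 3 at 79.6% and NID2 3 at 68% G and C. No TATA box (TATAAA, held by 10.7% of promoters) and no AP-1 site (TGANTCA, held by 6.57%) was found in any of the 6 stretches on either strand, and the E-box CACCTG (17.5%) had 1 match, in LAMA5. Such matches are letters in a window and do not show binding.

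The other laminin chains did not share 1 direction. Of 5 with a row of their own, 2 rose and 1 fell, with a median log2 difference of 0.01. Over all rows, 10.9% were called higher and 9.31% lower, and the median difference was −0.02. LAMB2, the alternative beta chain, averaged 1148 ± 60.1 in siESRP and 846 ± 83.5 in siGFP (SD, n = 4 each), 1.36-fold higher with a limma adjusted p of 0.00868. Its log2 difference of 0.44 was 0.43 on the deposited scale and 0.44 with the replicate number as a block, but the call was lost in both (adjusted p = 0.136 and 0.0544). LAMA1, the alpha chain of early embryos, averaged 32.8 in siESRP and 21.4 in siGFP, near background, and its call was lost on the deposited scale (0.190), with median scaling (0.229) and with the block (0.0520). LAMC3, a gamma chain, averaged 79.9 ± 6.37 in siESRP and 109 ± 9.54 in siGFP and fell (limma adjusted p = 0.0116), a call lost on the deposited scale (0.0785). LAMA2 and LAMB4 did not pass.

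Of 25 other basement membrane genes, 18 had a row. Among these 6 rose, 1 fell and 11 did not pass, with a median log2 difference of 0.13. The shares over all rows were 10.9% higher and 9.31% lower. COL4A5 and COL4A6, paired chains of type IV collagen, had the smallest p-values with FRAS1. COL4A5 averaged 798 ± 79.7 in siESRP and 363 ± 2.66 in siGFP, and COL4A6 averaged 411 ± 44.6 in siESRP and 231 ± 14.3 in siGFP (SD, n = 4 each, limma adjusted p = 0.000189 and 0.00110). FRAS1, which anchors epithelium to the underlying matrix, rose 1.65-fold. FREM2, a partner of FRAS1, averaged 52.0 in siESRP and 34.2 in siGFP, near background in siGFP. The FREM2 call was lost with median scaling (0.189) and on the deposited scale (0.244). The gene that fell was COL15A1, named after its value was seen, with 65.1 in siESRP and 93.8 in siGFP, a call lost both with median scaling and on the deposited scale. COL4A1 and COL4A2, chains of the most widespread type IV collagen, are also named after their values were seen. COL4A1 rose 1.30-fold (limma adjusted p = 0.0123), and COL4A2 did not pass (log2 difference 0.17, adjusted p = 0.106), although its siESRP arrays all lay above its siGFP arrays.

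Among laminin receptors and anchors, 6 of 14 with a row rose, 0 fell and 8 did not pass. Their median log2 difference was 0.23, and 10.9% of all rows were called higher and 9.31% lower. Of the values lower in siESRP, that of SDC2 alone had an unadjusted limma p under 0.05 (44.3 in siESRP and 59.4 in siGFP, adjusted p = 0.150). ITGA3, the alpha subunit of a main epithelial laminin receptor, averaged 2546 ± 201 in siESRP and 1377 ± 40.0 in siGFP (SD, n = 4 each), 1.84-fold higher with a limma adjusted p of 0.000261. SDC1, a heparan sulfate proteoglycan of the epithelial surface, rose 1.92-fold. ITGB1, the beta partner of ITGA3, rose 1.29-fold and ITGA6 1.30-fold. ITGB4, the hemidesmosomal partner of ITGA6, did not pass (log2 difference 0.17, limma adjusted p = 0.221). On the deposited scale 3 of the 14 were called higher, and ITGA6 was not among them (0.122).

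Of 23 genes of matrix processing, heparan sulfate synthesis and dystroglycan glycosylation, 19 had a row. Of these 6 rose, 1 fell and 12 did not pass (median log2 difference 0.20), beside 10.9% higher and 9.31% lower over all rows. SULF2, which trims sulfate groups from heparan sulfate outside the cell, averaged 1682 ± 82.3 in siESRP and 697 ± 50.1 in siGFP (SD, n = 4 each), 2.41-fold higher with a limma adjusted p of 9.15e-05. BMP1, a protease that cleaves laminin and perlecan chains, averaged 776 ± 57.7 in siESRP and 363 ± 50.8 in siGFP. MMP14, a membrane protease that can cleave laminin, averaged 121 in siESRP and 33.8 in siGFP, near background in siGFP. NDST1, a sulfotransferase of heparan sulfate, rose 1.37-fold. Its log2 difference of 0.45 was 0.44 on the deposited scale and 0.45 with the block, but the call was lost in both (adjusted p = 0.101 and 0.0519). The gene that fell was EXT1, named after its value was seen, with 2172 ± 106 in siESRP and 2632 ± 127 in siGFP. EXT2, its partner in the enzyme that extends the heparan sulfate chain, was also named after its value was seen and rose 1.36-fold. On the deposited scale 3 of the 19 were called higher and 0 lower.

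**Figure D4:**
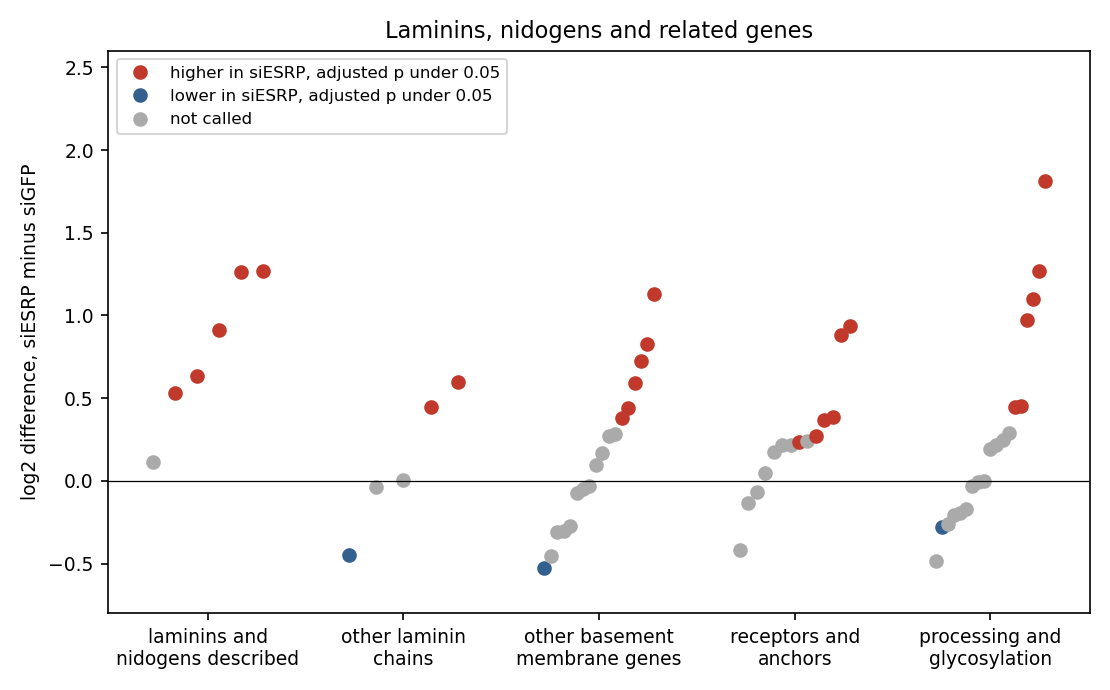
Log2 difference, siESRP minus siGFP (vertical axis), of the 6 genes described and of 4 lists of related genes, 1 point a gene, sorted within a list. Red points were called higher, blue points lower and grey points were not called, with 5 of 6, 2 of 5, 6 of 18, 6 of 14 and 6 of 19 points red from left to right.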

How the data were processed

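Biotinylated sense-strand DNA from 1 µg of RNA per sample, after ribosomal RNA reduction, was hybridized to Affymetrix exon arrays, per the labels' protocols. The authors deposited 1 linear intensity per gene-level row and array. How probes were summarized, background corrected and scaled is not given in the sources used here. Between 2.70% and 4.02% of the values of an array lie below 0. Array medians differed, so intensities were quantile normalized, set to 0 where below 0 and taken as log2(value + 1). 

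Groups came from the sample titles. The test was limma 3.58.1 in R 4.3.3 (lmFit, eBayes, no covariate, two-sided) over 18495 rows, with Benjamini-Hochberg adjustment. It was tested on simulated data. Within-array ratios used exact permutation tests. The members and lists were chosen with earlier results of these data known, so counts over them are descriptions. Of the rows, 14577 had 1 gene symbol, 2849 several and 1069 none, per GEO's platform annotation, and 14550 matched the RefSeq gene table by Entrez ID. Named genes were the 6 with a row, up to 4 per related list by smallest p, and the 3 rows nearest to the 2 genes with the largest difference. Genes outside this rule are named as such or to complete a count, after their values were seen. The number of arrays limits the precision.

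Alternatives were no normalization, median scaling, removal of the dimmest 25% of rows, a larger pseudocount (16), eBayes with trend and robust fitting, weighted arrays, a replicate block, stricter thresholds and leaving out each array. A further alternative averaged the rows of a gene, which left 18189 rows to test and changed no intensity of the 6 genes, each of which has 1 row. Exon use was not measured from this table, and its part in the differences was not tested.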

Additional observations from a re-analysis of the deposited data

Results flagged for a closer look

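Within groups of 4 arrays, 2 of 66 sets of values had 1 array apart from the other 3 by more than Dixon's 95% critical value, where chance sets apart about 1 in 20. LAMC3 in siGFP had a gap ratio of 0.947, with replicate 4 low at 95.1 and the others between 113.5 and 114.6. COL4A6 in siGFP had a gap ratio of 0.842, with replicate 2 high at 252 and the others between 221 and 226. None of the 6 laminin and nidogen genes with a row of their own, and neither shared row, was set apart in this way.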

How the results depend on the processing

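The 5 increases (LAMA4, LAMA5, LAMC1, NID1 and NID2) were called in all 18 alternatives, except that LAMC1 missed the 1.5-fold threshold (log2 difference 0.53), and LAMB1 was called in none. Over these alternatives NID1 ran from 1.20 to 1.31 and LAMA4 from 1.20 to 1.31. Without 1 array the counts stayed at 5 higher and 0 lower. The median difference of all rows was −0.02 as reported, −0.10 as deposited and −0.11 with median scaling. Calls over all rows were 2007 higher and 1722 lower, 1045 and 628 as deposited, 1115 and 693 at an adjusted p under 0.01, and 866 and 443 with at least 1.5-fold, while the replicate block gave 1346 higher and 946 lower. Same-numbered arrays had deviations correlated at 0.05, 0.05, −0.18 and 0.03, and differently numbered arrays at −0.17 to 0.20. Values so alike cannot show whether same-numbered samples were paired, and the labels do not say. The block kept all 5 calls of the laminin and nidogen genes and, among the related genes named by the rule, ended those of LAMB2, LAMA1 and NDST1.

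Other laminin chains had 2 called higher and 1 lower as reported, 0 and 0 as deposited, 1 higher with median scaling, without the dimmest rows or with at least 1.5-fold, 0 higher with the block, and 0 lower at 0.01 or with 1.5-fold. Other basement membrane genes had 0 lower as deposited, with median scaling or with 1.5-fold, and 1 to 2 lower when an array was left out. Receptors had 3 higher as deposited and 2 with 1.5-fold. Processing genes had 3 higher and 0 lower as deposited, and 0 lower at 0.01 or with 1.5-fold. LAMA2, not called and −0.04 as reported, turned to 0.052 with array weights and lay between −0.143 and 0.0312 with 1 array omitted, above 0 without siESRP replicate 3 or 4 or siGFP replicate 3. The shift of NID1 over NID2 (0.63) passed when adjusted over 15 pairs (0.0390) and not over 2 (0.0571). Both adjusted values of that ratio come from the same exact permutation p of 0.0286, adjusted over different numbers of pairs. Calls lost at 0.01 or with 1.5-fold follow from the stricter thresholds. The cause of the other changes was not tested. Intensities near 0 cannot be told from background.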
